A study of Mus musculus with 12 samples.

Results

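Globins and red cell genes were followed in microdissected cartilage of the mouse growth plate, a tissue that has no red cells of its own. The set held the adult beta-globin genes Hbb-b1 and Hbb-b2, the embryonic beta-like gene Hbb-bh1, the adult alpha-globin Hba-a1, the embryonic alpha-like gene Hba-x, and 4 genes of red cell formation, Alas2, Slc4a1, Eraf and Klf1. Members were all non-control probes that carried one of these 9 symbols as their gene name, which gave 13 of 41174 probes, for 8 of the 9 symbols, or 8 of 27962 gene names on the array. No probe was named Hbb-b2 itself. Probes were picked by gene name, and the genes had been chosen with earlier results of these data known.

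The study hybridised amplified RNA from the hypertrophic zone of the tibia of 14-day-old mice to 12 one-colour arrays, 1 mouse per array and 3 arrays in each of 4 groups. Schmid mice carried the Col10a1 p.Asn617Lys mutation of collagen X and were homozygous per the study's methods, and they were compared with wildtype littermates of the same background, written here as wildtype (Schmid). Cog mice carried the ColXTgcog transgene, in which the Col10a1 promoter drives a misfolding form of thyroglobulin in hypertrophic chondrocytes, and hemizygous and homozygous animals were not told apart. Their wildtype littermates are written as wildtype (Cog). The zone was cut from cryosections with a scalpel, so that tissue at the border with bone and marrow could enter the sample. The tissue label was checked against markers of prehypertrophic and hypertrophic chondrocytes. The mean normalized log2 signal of the Col10a1 probe lay between 14.06 and 15.06 in the 4 groups. The brightest Mmp13 probe stood at 12.85 in Schmid, 14.12 in wildtype (Schmid), 14.34 in Cog and 14.83 in wildtype (Cog), and that of Ihh at 13.44, 16.99, 15.78 and 17.15, so that Ihh was lower in Schmid than in its wildtype by 3.55 on these means. The transgene label was checked with a thyroglobulin probe (Tgn), which stood at 17.86 in Cog and at 9.66 to 9.96 elsewhere. All levels below are normalized log2 signals, in which 1 unit is a factor of 2, and levels are compared within a probe, apart from a difference between kinds of Hbb-b1 probe that is described within each array.

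Red cells form in the marrow from erythroblasts, which fill with haemoglobin, a tetramer of alpha-like and beta-like globin chains that each hold a haem. Embryonic chains are made by the first, yolk sac derived cells and give way to the adult chains before birth. At the lower edge of the growth plate, vessels that carry blood invade the hypertrophic cartilage, and marrow follows them. In bulk samples such as these, fewer cells of a type and less RNA per cell cannot be told apart.

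The 4 probes for Hbb-b1, the adult major beta chain (NM_008220), lay on the minus strand of chromosome 7 in the mm7 annotation of the scanner files. Of these, 2 listed only the major chain, A_51_P374476 at chr7:99864305-99864363 and A_52_P260346 at chr7:99864335-99864394. The other pair, A_52_P213909 at chr7:99863416-99863476 and A_51_P374468 at chr7:99864621-99864680, also listed NM_016956, which the RefSeq table names Hbb-b2, so their signal can come from both genes. The split into major-chain probes and probes for both genes rests on these listings alone. The labels do not say which beta-globin genes these mice carry. The sequences show which probes share letters, with the 29 bases common to the first pair in capitals.
A_51_P374476: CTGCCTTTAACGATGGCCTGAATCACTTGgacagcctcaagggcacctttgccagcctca
A_52_P260346: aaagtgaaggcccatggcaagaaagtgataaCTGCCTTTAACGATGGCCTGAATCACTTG
A_51_P374468: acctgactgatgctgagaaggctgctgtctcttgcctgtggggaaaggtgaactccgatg

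The Hba-a1 probes came from plus-strand transcripts on chromosome 11, A_52_P208681 at chr11:32235937-32235996 and A_52_P278538 with its letters spread over chr11:32235785-32235966. They overlapped by 30 bases and differed from each other at 3 of them, which are in capitals below, so that they were drawn from slightly different alpha-globin sequences.
A_52_P208681: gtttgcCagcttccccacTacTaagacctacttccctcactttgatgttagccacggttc
A_52_P278538: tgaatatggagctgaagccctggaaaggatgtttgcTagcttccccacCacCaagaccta

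The Hbb-bh1 probes, A_51_P179672 at chr7:99898179-99898238 and A_52_P305876 at chr7:99898199-99898258, shared 40 bases, in capitals below.
A_51_P179672: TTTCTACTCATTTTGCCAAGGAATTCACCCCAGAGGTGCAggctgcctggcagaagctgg
A_52_P305876: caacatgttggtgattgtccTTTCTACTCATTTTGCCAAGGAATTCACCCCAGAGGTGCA

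For adult globins and Alas2, the 250 bases before their start sites are shown from the promoter table of RefSeq (GRCm38.p6), where the gene with accession NM_008220 is named Hbb-bt. The Hbb-bt stretch is chr7:103813924-103814173 on the minus strand, that of Hba-a1 is chr11:32283422-32283671 and that of Alas2 is chrX:150547167-150547416, both on the plus strand. Capitals mark every match, on either strand, to the KLF box CACCC or its longer form CCACACCC that contains it, to the GATA motif AGATAA, to the CCAAT box and to the start-site motif written TATAA here.
Hbb-bt: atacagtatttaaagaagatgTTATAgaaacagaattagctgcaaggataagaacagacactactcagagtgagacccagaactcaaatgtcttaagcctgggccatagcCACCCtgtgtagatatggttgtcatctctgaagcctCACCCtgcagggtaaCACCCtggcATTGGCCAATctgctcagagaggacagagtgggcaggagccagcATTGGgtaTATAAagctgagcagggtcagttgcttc
Hba-a1: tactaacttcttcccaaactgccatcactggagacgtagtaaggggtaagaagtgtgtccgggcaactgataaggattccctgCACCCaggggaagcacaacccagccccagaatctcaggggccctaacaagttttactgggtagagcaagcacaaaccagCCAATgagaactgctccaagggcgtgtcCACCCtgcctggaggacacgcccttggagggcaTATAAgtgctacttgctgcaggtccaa
Alas2: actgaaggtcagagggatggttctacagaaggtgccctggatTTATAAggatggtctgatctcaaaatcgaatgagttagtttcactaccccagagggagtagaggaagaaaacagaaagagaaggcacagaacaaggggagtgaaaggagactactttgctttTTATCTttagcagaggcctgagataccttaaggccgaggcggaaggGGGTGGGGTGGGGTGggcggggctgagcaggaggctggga
The CACCC letters stood 140, 104 and 89 bases before the start of Hbb-bt, 167 and 60 before that of Hba-a1 and, on the opposite strand, 40, 35 and 30 before that of Alas2. CCAAT was found in both globin stretches and not among these letters of Alas2, while AGATAA was found 86 bases before the start of Alas2 on the opposite strand. A TATAA match lay 28 bases before the start of Hbb-bt and 27 before that of Hba-a1. CCACACCC was found in none of the stretches shown, and GATA forms other than AGATAA were not searched. The stretch of Hbb-bs, another adult beta-globin gene, was searched but is not shown. It held CCACACCC 93 bases and AGATAA 210 bases before its start. Members not called in Schmid also held CACCC, Hba-x at 198 and 95 bases and Klf1 at 114 bases before the start. Whether these letters bear on the differences was not tested. These letters are common: of 32817 promoters of the same length, 52% held CACCC, 33.8% held CCAAT, 22.8% held TATAA, 9.99% held AGATAA and 3.19% held CCACACCC.

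Adult beta-globin was far lower in the Schmid hypertrophic zone than in that of its wildtype littermates. The major-chain probe A_51_P374476 gave levels of 15.16, 14.39 and 13.30 in Schmid and of 19.11, 18.69 and 17.24 in wildtype (Schmid). Every Schmid array was below every wildtype array by more than the range within either group. Across the fit to all probes with limma and Benjamini-Hochberg adjustment, the difference was a log2 fold change of -4.07 (SE 0.61, 95% interval -5.41 to -2.72, n = 3 against 3), or 16.8-fold lower, with an adjusted p of 0.0015. The other major-chain probe, A_52_P260346, fell from 18.31, 18.11 and 16.34 to 14.24, 13.40 and 12.10, a log2 fold change of -4.34 (SE 0.69; 20.2-fold lower, limma adjusted p = 0.002).

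Probes that also list Hbb-b2, the adult minor chain gene, moved the same way. A_52_P213909 stood at 15.28, 14.54 and 13.28 in Schmid and at 18.38, 18.45 and 17.13 in wildtype (Schmid), 12.3-fold lower (log2 fold change -3.62, SE 0.59, limma adjusted p = 0.0022). A_51_P374468 stood at 12.84, 12.44 and 12.05 against 17.03, 16.70 and 14.71, 13.1-fold lower (log2 fold change -3.71, SE 0.55, limma adjusted p = 0.0014). For all 4 probes the groups did not overlap.

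Alpha-globin fell to a similar extent. Hba-a1 by A_52_P208681 read 14.59, 14.31 and 13.43 in Schmid and 18.50, 17.91 and 16.33 in wildtype (Schmid), which is 11.1-fold lower (log2 fold change -3.47, SE 0.58, limma adjusted p = 0.0025). The second Hba-a1 probe read 14.43, 14.11 and 13.09 against 18.45, 17.76 and 16.21, 12.1-fold lower (log2 fold change -3.60, SE 0.60, limma adjusted p = 0.0026). All Schmid arrays were below all wildtype arrays for both probes, and the 3 bases by which the probes differ came with no difference in direction.

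Alas2, the erythroid form of the first and rate-limiting enzyme of haem synthesis, was the third gene past both limits (A_51_P327451, chrX:145329125-145329184, NM_009653). Its level was 10.68, 10.70 and 10.03 in Schmid and 14.48, 14.29 and 13.00 in wildtype (Schmid). The Schmid arrays again lay wholly below. The fold change was 10.9-fold lower on a log2 difference of -3.45 (SE 0.66, 95% interval -4.91 to -1.99, limma adjusted p = 0.0049).

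In this comparison 7 of the 13 probes, for 3 genes, had an adjusted p of 0.05 or less with at least a 2-fold decrease, and none an increase, where 4.69% of all probes tested were called lower and 5.78% higher. An adjusted p of 0.05 or less, whatever the fold, was reached by 9 probes (24% of all probes), and an unadjusted p of 0.05 or less by 11 (39.3%). Ranked from the most negative log2 fold change among 41174 probes, these 7 stood at 2, 3, 8, 10, 11, 13 and 16. The median difference over the 13 probes was -3.45, beside -0.06 over all probes, whose middle 90% lay between -1.09 and 1.22. All Schmid arrays were below all wildtype arrays for 10 of the 13 probes, which held for 26% of all probes. Under the 20 other settings run for this comparison, each of the 7 kept its direction and its call.

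**Figure D1:**
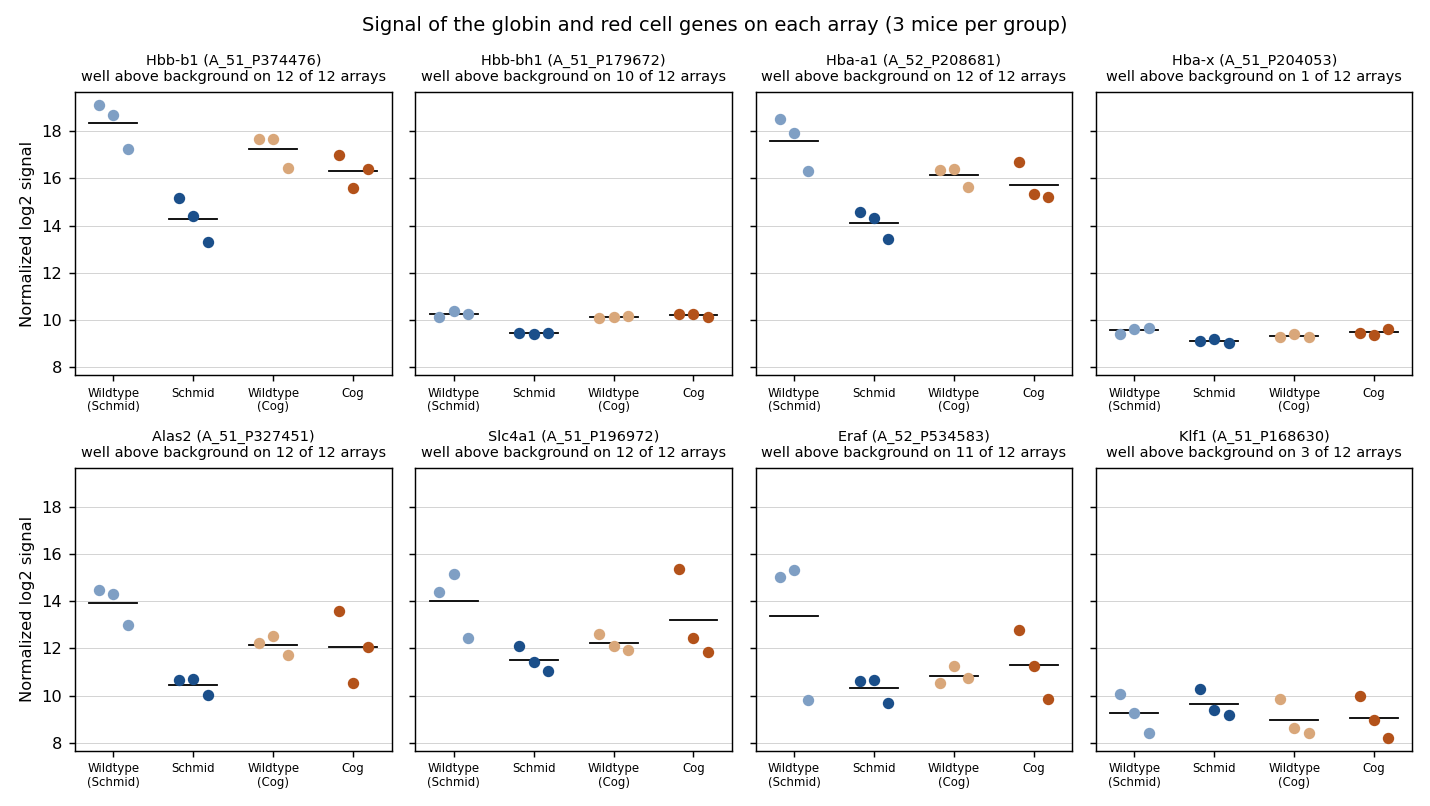
Normalized log2 signal of each member's brightest probe (vertical axis) on every array, 1 point per mouse, with the group mean as a line, for the 4 groups of 3. For Hbb-b1 and Hba-a1 the Schmid arrays lie below all others, for Alas2 they lie below all but Cog replicate 2 (10.52), and the groups overlap for Klf1.

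Slc4a1, the band 3 anion exchanger of the red cell membrane (A_51_P196972, chr11:102457981-102458040, NM_011403), had the same direction without passing the adjusted limit. It stood at 12.09, 11.43 and 11.06 in Schmid and at 14.39, 15.14 and 12.46 in wildtype (Schmid), with no overlap. The log2 difference was -2.47 (SE 0.87, 95% interval -4.41 to -0.54, limma adjusted p = 0.063), or 5.55-fold lower. With the replicate number as a block the same difference had an adjusted p of 0.029.

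Eraf, which encodes the chaperone that stabilises free alpha-globin chains and is now called Ahsp, showed the largest disagreement between replicates. Its probe, for NM_133245, has no coordinate in the files, and its sequence identifies what was measured.
A_52_P534583: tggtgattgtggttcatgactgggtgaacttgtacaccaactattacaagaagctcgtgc
The 3 wildtype (Schmid) arrays read 15.02, 15.33 and 9.81, a 46-fold span, and the Schmid arrays 10.61, 10.67 and 9.71, so that replicate 3 of the wildtype overlapped Schmid. The log2 difference was -3.06 (SE 1.26, 95% interval -5.85 to -0.27, limma adjusted p = 0.1). Without wildtype (Schmid) replicate 3 it was -4.85 (adjusted p = 0.0027) and that of Slc4a1 was -3.24 (adjusted p = 0.033), which raised the number of called probes from 7 to 9. That array was also the only one of its group scanned on the second scan day, so a fit with scan day as a block gave these same values. For Hbb-b1 the same array read 17.24, above all Schmid arrays.

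Both embryonic globins gave low signals. Hbb-bh1, a beta-like chain of primitive red cells, stood by A_51_P179672 at 9.43, 9.42 and 9.44 in Schmid and at 10.13, 10.39 and 10.27 in wildtype (Schmid), a log2 difference of -0.84 (SE 0.10, limma adjusted p = 0.00046) that was 1.78-fold and so under the 2-fold limit. The probe was well above background on 10 of 12 arrays, and the groups did not overlap. With Agilent's processed signal the difference was -2.07 or -2.05, depending on the scaling, and past both limits, and with array row and GC trends removed it was -0.31.

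The overlapping Hbb-bh1 probe A_52_P305876, well above background on 4 of 12 arrays, had 9.41, 9.45 and 9.35 in Schmid against 9.13, 9.57 and 9.24 in wildtype (Schmid). It was well above background on all 3 Schmid arrays and on none of wildtype (Schmid), and the groups overlapped, so no fold is given.

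Hba-x, the alpha-like chain of primitive red cells (A_51_P204053, chr11:32229678-32229737, NM_010405), was well above background on 1 of 12 arrays, a wildtype (Schmid) array. Its levels were 9.10, 9.21 and 9.02 in Schmid and 9.41, 9.62 and 9.65 in wildtype (Schmid), a log2 difference of -0.45 (limma adjusted p = 0.02). With no Schmid array and only 1 wildtype (Schmid) array well above background, no fold is given. The log2 difference was -1.75 (limma adjusted p = 0.017) when processed signals were scaled by each array's 75th percentile. Its sign turned, to 0.10, once trends with array row and GC content were removed.

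Klf1, the transcription factor that activates adult beta-globin through CACCC boxes (A_51_P168630, chr8:83491092-83491151, NM_010635), gave no group pattern. It was well above background on 3 of 12 arrays and its levels were 10.28, 9.41 and 9.19 in Schmid, 10.09, 9.27 and 8.43 in wildtype (Schmid), 9.99, 8.99 and 8.22 in Cog and 9.86, 8.64 and 8.44 in wildtype (Cog), which overlap throughout. The difference was 0.36 (95% interval -0.89 to 1.61, limma adjusted p = 0.67), an interval that still includes a 2-fold rise. Its sign turned under 3 of the 20 other settings.

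**Figure D2:**
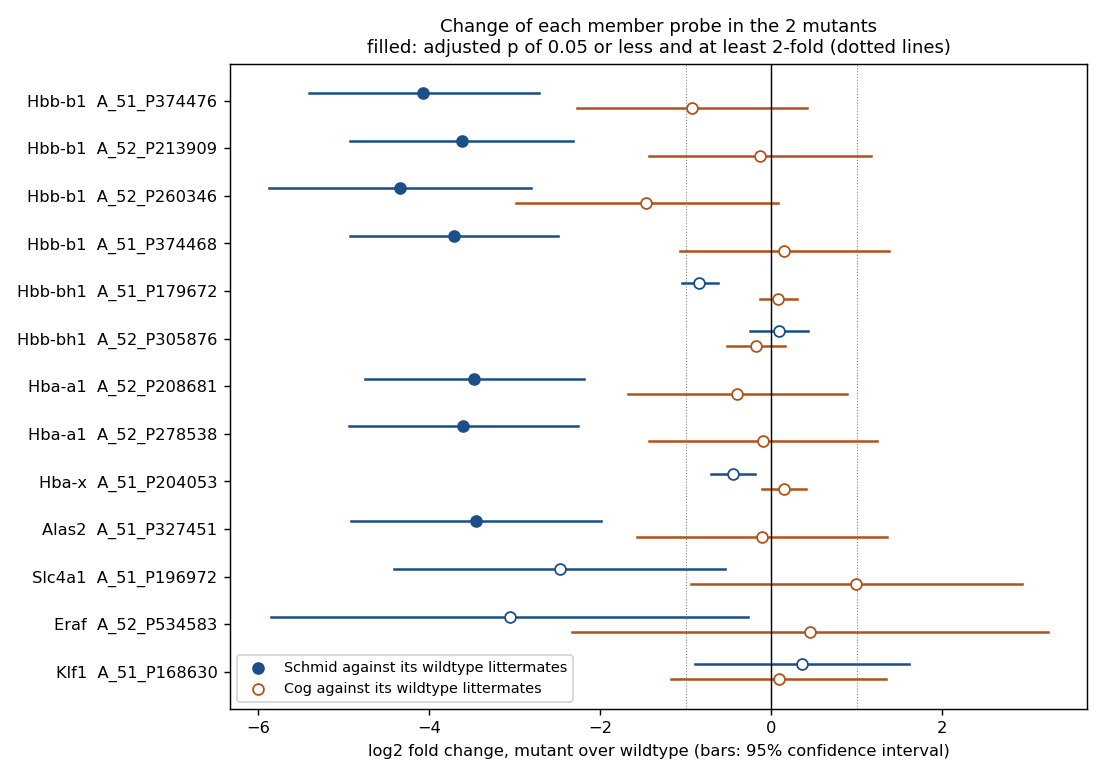
Log2 fold change with its 95% interval (horizontal axis) for each of the 13 probes, Schmid against wildtype (Schmid) and Cog against wildtype (Cog). The Schmid intervals of all Hbb-b1, Hba-a1 and Alas2 probes end at -1.99 or lower, whereas all Cog intervals include 0.

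In Cog, no member differed from its own wildtype by this test. By the major-chain probe A_51_P374476, Hbb-b1 read 16.97, 15.61 and 16.41 in Cog and 17.65, 17.66 and 16.45 in wildtype (Cog), and the groups overlapped. The difference was -0.93 (SE 0.61, 95% interval -2.27 to 0.42, limma adjusted p = 0.42). A_52_P260346 differed by -1.46 (95% interval -2.99 to 0.08, adjusted p = 0.26), while A_52_P213909 and A_51_P374468, which can also detect Hbb-b2, differed by -0.13 and 0.15. None of the 13 probes was called in either direction, with 0.748% of all probes called lower and 1.56% higher, and none had an adjusted p of 0.05 or less whatever the fold (4.58% of all probes) or an unadjusted p of 0.05 or less (21.3%). The median difference over the members was -0.10, beside 0 over all probes.

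Hba-a1 gave the same picture in Cog, with levels by A_52_P208681 of 16.71, 15.32 and 15.19 and, in wildtype (Cog), of 16.37, 16.41 and 15.64. The difference was -0.40 (95% interval -1.68 to 0.88, limma adjusted p = 0.74), and that of A_52_P278538 was -0.10 (adjusted p = 0.95). These intervals still include changes of more than 2-fold downward, and that of A_52_P278538 (-1.43 to 1.24) also upward. Changes of that size are thus not excluded with 3 mice a group.

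Alas2 and Slc4a1 spread widely among the Cog mice. Alas2 read 13.58, 10.52 and 12.06 in Cog, an 8.29-fold span, and 12.22, 12.52 and 11.74 in wildtype (Cog). Slc4a1 read 15.36, 12.43 and 11.86 in Cog, an 11.3-fold span, and 12.62, 12.12 and 11.93 in wildtype (Cog). In both, Cog replicate 1 was above all wildtype (Cog) arrays and the other two lay within their range or below it.

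The mean differences were -0.11 for Alas2 (95% interval -1.57 to 1.35, limma adjusted p = 0.95) and 0.99 for Slc4a1 (95% interval -0.94 to 2.93, limma adjusted p = 0.55). Without Cog replicate 1 they were -0.87 and -0.08, and neither gene was called in Cog under any setting run. Among the 12807 probes that every array measured well above background, the SD of Slc4a1 within Cog ranked at the 100th percentile and that of Alas2 at the 99.8th, whose median SD was 0.31. Eraf read 12.78, 11.24 and 9.88 in Cog and 10.53, 11.26 and 10.75 in wildtype (Cog), again with replicate 1 highest, and differed by 0.45 (limma adjusted p = 0.87). Hbb-bh1 differed by 0.08 by A_51_P179672 (limma adjusted p = 0.67). The other Hbb-bh1 probe, Hba-x and Klf1 were each near background, with no array of Cog or none of wildtype (Cog) well above it, and their levels overlapped.

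Whether the effects of Schmid and Cog differ was tested by their difference in the same fit. It was called for 6 of 13 probes, for Hbb-b1, Hba-a1 and Alas2, all lower in Schmid, beside 5.88% of all probes called lower and 4.38% higher. Whatever the size, 8 probes had an adjusted p of 0.05 or less (16.6% of all probes) and 10 an unadjusted one (32.5%). For Hbb-b1 the Schmid effect minus the Cog effect was -3.14 (SE 0.86) by A_51_P374476 and -3.86 by A_51_P374468, with limma adjusted p values of 0.033 and 0.0093. By A_52_P260346 it was -2.88 with an adjusted p of 0.07, which became 0.024 with the replicate number as a block. Hba-a1 gave -3.07 and -3.51 and Alas2 -3.34 (limma adjusted p = 0.03, 0.021 and 0.035). For Slc4a1 (-3.46, adjusted p = 0.081, or 0.04 with the block) and Eraf (-3.51, adjusted p = 0.2) the difference did not pass.

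The count of 6 rested on single mice. It fell to 2 without wildtype (Schmid) replicate 2 and to 3 without Schmid replicate 2, Schmid replicate 3, wildtype (Cog) replicate 2 or wildtype (Cog) replicate 3, and it rose to 9 without wildtype (Schmid) replicate 3. A_51_P374468, the Hbb-b1 probe that begins acctg above and also lists Hbb-b2, passed under each of the 24 other settings, with adjusted p values of at most 0.027. Alas2 lost its call in 9 of them, with differences from -4.18 to -2.58 throughout.

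No member passed the test between the wildtype groups. The level of Hbb-b1 by A_51_P374476 was 18.35 ± 0.98 (SD, n = 3) in wildtype (Schmid), 17.26 ± 0.70 in wildtype (Cog), 16.33 ± 0.68 in Cog and 14.28 ± 0.94 in Schmid. Neighbouring groups in this order overlapped except Cog and Schmid, whose nearest arrays stood at 15.61 and 15.16 and whose difference was not tested apart from the contrasts above. Hba-a1 had the same order, at 17.58 ± 1.12, 16.14 ± 0.44, 15.74 ± 0.84 and 14.11 ± 0.61, again with Schmid alone clear of its neighbour.

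Wildtype (Schmid) minus wildtype (Cog) was 1.09 for that Hbb-b1 probe, 2.01 for A_51_P374468, 1.44 and 1.71 for the Hba-a1 probes, 1.76 for Alas2, 1.77 for Slc4a1 and 2.54 for Eraf. No member was called, beside 0.233% of all probes called higher and 0.236% lower, and 5 of 13 had an unadjusted p of 0.05 or less, beside 14.1%. The median over members was 1.43 and that over all probes 0. All wildtype (Schmid) arrays were above all wildtype (Cog) arrays for 3 of 13 probes (9.51% of all probes) and below them for none (8.64%). Without wildtype (Schmid) replicate 3, A_51_P374468 (2.73, adjusted p = 0.026) and Eraf (4.33, adjusted p = 0.043) were called. With all 6 wildtype arrays as 1 reference, the same 7 probes were called lower in Schmid and none in Cog.

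The difference between the kinds of Hbb-b1 probe was taken within each array. The mean of the major-chain probes minus the mean of those that also list Hbb-b2 was 1.01, 0.82 and 0.87 in wildtype (Schmid) and 0.64, 0.40 and 0.04 in Schmid. In wildtype (Cog) it was 1.90, 1.54 and 1.18 and in Cog 0.25, 0.10 and 0.67. Both mutants lay wholly below their wildtypes in this difference, which is between probes and gives no ratio of the 2 chains. Mutant minus wildtype was -0.54 for Schmid and -1.20 for Cog. An exact two-sided permutation test of 3 against 3 arrays cannot go below p = 0.1, so it could not decide on either difference. No other test of them was run. Wildtype (Schmid) minus wildtype (Cog) was -0.64 in the same measure.

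**Figure D3:**
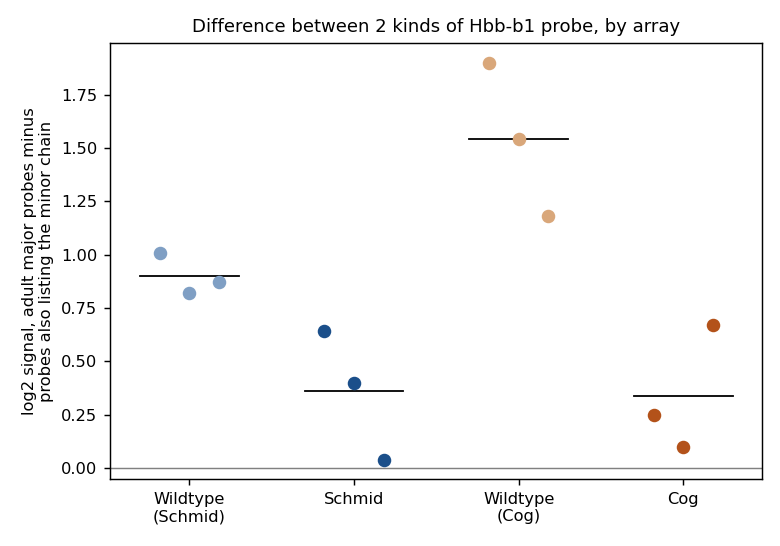
Difference in log2 signal between the Hbb-b1 probes that list only the major chain and those that also list Hbb-b2 (vertical axis), 1 point per array, with group means as lines. Schmid (mean 0.36) and Cog (mean 0.34) lie below wildtype (Schmid) at 0.90 and wildtype (Cog) at 1.54, without overlap between a mutant and its own wildtype.

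Among mice of the same group, Hba-a1, Alas2, Slc4a1, Eraf and Klf1 followed Hbb-b1, and the embryonic globins did not. Klf1 was well above background on only 3 of the 12 arrays, and in each group its level fell from replicate 1 through 2 to 3. Hbb-b1 by A_51_P374476 was also lower on replicate 3 than on replicate 1 in each group. Over the 12 arrays, Pearson's r with the major-chain probe A_51_P374476 was 0.97 for Hba-a1 (A_52_P208681), 0.92 for Alas2, 0.71 for Slc4a1, 0.68 for Eraf and 0.06 for Klf1. With group means removed it was 0.90, 0.79, 0.68, 0.67 and 0.73 in the same order. For the Hbb-bh1 probes r was 0.78 and -0.06 over the 12 arrays, and -0.29 and 0 with group means removed. For Hba-x it was 0.69 and 0.02. The embryonic probes had low signals with little spread within groups, which limits what their values with group means removed can show. These are descriptions over arrays that share slides and normalization, and whether the replicate number bears on them was not tested. The mean of the brightest probes of Hbb-b1, Hba-a1, Alas2 and Slc4a1, taken as the members' pattern, spanned 11.95 to 13.13 in Schmid, 14.76 to 16.62 in wildtype (Schmid), 13.47 to 15.65 in Cog and 13.94 to 14.72 in wildtype (Cog).

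Among 20005 other probes well above background on at least 6 arrays, those most like this pattern over the 12 arrays were Mki67, a marker of dividing cells (r = 0.958), Ctse, an aspartic protease found in red cells (r = 0.935), 2810417H13Rik (r = 0.915), Lyl1, a basic helix-loop-helix factor of blood progenitors (r = 0.912), and Trim10, a gene of terminal red cell formation (r = 0.895). Next came Mcm5 (r = 0.89), Vpreb3, a gene of the B lymphocyte list read below (r = 0.885), and LOC383229 (r = 0.883). Mki67 read 10.89, 11.29 and 10.93 in Schmid, 14.11, 13.85 and 12.80 in wildtype (Schmid), 13.11, 11.69 and 12.36 in Cog and 12.99, 12.20 and 12.38 in wildtype (Cog). These levels follow from how the gene was chosen and were not tested.

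Other red cell genes were read from lists of haem, membrane, regulatory and other erythroid genes, with 102 genes measured of 127 symbols and each gene given by its brightest probe. Of the 102, 10 were lower and 5 higher in Schmid, where 4.69% of all probes were lower and 5.78% higher, so that the 5 higher are near the share of all probes. In Cog, 1 was lower and 3 higher, beside 0.748% and 1.56% of all probes. None of the 24 measured genes of the red cell membrane and its skeleton was called in either mutant, with a median difference of -0.43 in Schmid, where that of all probes was -0.06, and of -0.09 in Cog. The membrane count in Schmid depended on the scaling. It was 6 lower with normexp values scaled to the 75th percentile, 3 lower with Agilent's processed signal under either scaling and 3 lower without wildtype (Schmid) replicate 3.

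Among regulators, 5 of 26 were lower in Schmid and none higher, with a median difference of -0.82, beside 4.69% of all probes called lower and their median of -0.06, and none was called in Cog, with a median of 0.10. The count of 5 became 9 when either signal was scaled to the 75th percentile and 8 with the processed signal and quantile scaling. It was 3 without Schmid replicates 1 or 3 or wildtype (Schmid) replicate 2, and 7 without wildtype (Schmid) replicate 3. Lyl1 read 9.56, 10.16 and 9.79 in Schmid and 12.56, 12.76 and 12.04 in wildtype (Schmid), a log2 difference of -2.62 (SE 0.37, limma adjusted p = 0.0011). Bcl11a, the repressor that silences embryonic and foetal globin genes, read 10.03, 9.95 and 9.75 against 11.63, 11.73 and 11.71, a difference of -1.78 (SE 0.13, limma adjusted p = 4.7e-05). Each was lower on all Schmid arrays than on any wildtype array of that background.

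The other 2 probes of Bcl11a were well above background on 2 arrays and 1 array and differed by 0.27 and -0.41. Trim10 was called lower (limma adjusted p = 0.0021) but was not well above background on any Schmid array. Its fold is therefore a bound of at least 2.46-fold higher in wildtype (Schmid), which holds for this processing only. Its log2 difference ranged from -3.75 to -1.04 over the other settings. Zfpm1, the partner of GATA1 also called FOG1, fell by 1.56 (limma adjusted p = 0.038). Zfpm1 lost its call in 10 of the 20 other settings, with adjusted p values of 0.077 to 0.13 when any of Schmid replicates 1, 2 or 3 or wildtype (Schmid) replicates 2 or 3 was left out. The fifth gene, named after its values were seen, was Cbfa2t3h, a corepressor in the same complexes, at -1.36 (limma adjusted p = 0.031). Its adjusted p values were 0.053 to 0.11 without Schmid replicates 1 or 3 or wildtype (Schmid) replicates 1 or 2. The call was lost in 7 of the 20 other settings, and the second Cbfa2t3h probe differed by -0.92 (limma adjusted p = 0.077).

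Gata1, the master regulator of the lineage, stood at 9.68, 9.79 and 9.77 in Schmid and at 10.20, 10.42 and 10.37 in wildtype (Schmid), a difference of -0.58 (limma adjusted p = 0.0024) that was 1.5-fold and ranged from -1.38 to -0.17 under the other settings. Epor, the erythropoietin receptor, differed by -0.75 (limma adjusted p = 0.071).

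Of 25 measured haem genes, 2 were lower and 3 higher in Schmid, beside 4.69% and 5.78% of all probes, with a median of 0.04. In Cog 3 were higher, beside 1.56% of all probes, with a median of 0.25. Cpox, the mitochondrial coproporphyrinogen oxidase, read 15.03, 15.23 and 15.26 in Schmid against 13.40, 13.50 and 13.15, and 14.85, 14.97 and 14.87 in Cog against 13.22, 13.04 and 13.16. It rose by 1.82 in Schmid (limma adjusted p = 4e-05) and by 1.75 in Cog (limma adjusted p = 0.00014), and every mutant array was above every wildtype array. Cpox kept both calls in all other settings run.

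Hmox1, haem oxygenase 1, which breaks haem down and also answers to stress, rose by 2.36 in Schmid (limma adjusted p = 0.00025) and by 1.20 in Cog (limma adjusted p = 0.023). The Schmid rise exceeded the Cog rise by 1.16 (limma adjusted p = 0.042), whereas for Cpox that difference was 0.07 (adjusted p = 0.82). In Cog the adjusted p of Hmox1 was 0.054 to 0.092 without Cog replicates 2 or 3 or wildtype (Cog) replicates 1 or 2. Its call in Cog was lost in 7 of the 19 other settings, with adjusted p values of up to 0.31. These included either signal scaled to the 75th percentile and a fit of only the arrays of this comparison. Trfr2, transferrin receptor 2, rose by 1.26 in Schmid (adjusted p = 0.0067), and Ppox, the next enzyme after Cpox, rose by 1.38 in Cog (adjusted p = 0.0074), but differed by only 0.44 (adjusted p = 0.72) against all 6 wildtype arrays. Bach1, a haem-sensing repressor, fell by 1.30 in Schmid (adjusted p = 0.046) and Hpxn, the haem-binding plasma protein hemopexin, fell by 1.27 (adjusted p = 0.0015). The call for Hpxn was lost with array row and GC trends removed, and its difference ranged from -2.19 to -0.90 over the other settings. The call for Bach1 was lost with the replicate block (adjusted p = 0.051) and in 8 other settings, with adjusted p values of 0.058 to 0.16 when any of the 3 Schmid replicates or wildtype (Schmid) replicates 2 or 3 was left out.

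Other haem pathway enzymes, named here after their values were seen, were Alas1, Alad, Uros, Urod and Fech. Their differences lay between -0.25 and 0.29 in Schmid and between -0.25 and 0.93 in Cog, and none was called. Alas1, the form of the first enzyme used outside the red cell lineage, differed by 0.11 in Schmid, beside -3.45 for Alas2.

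**Figure D4:**
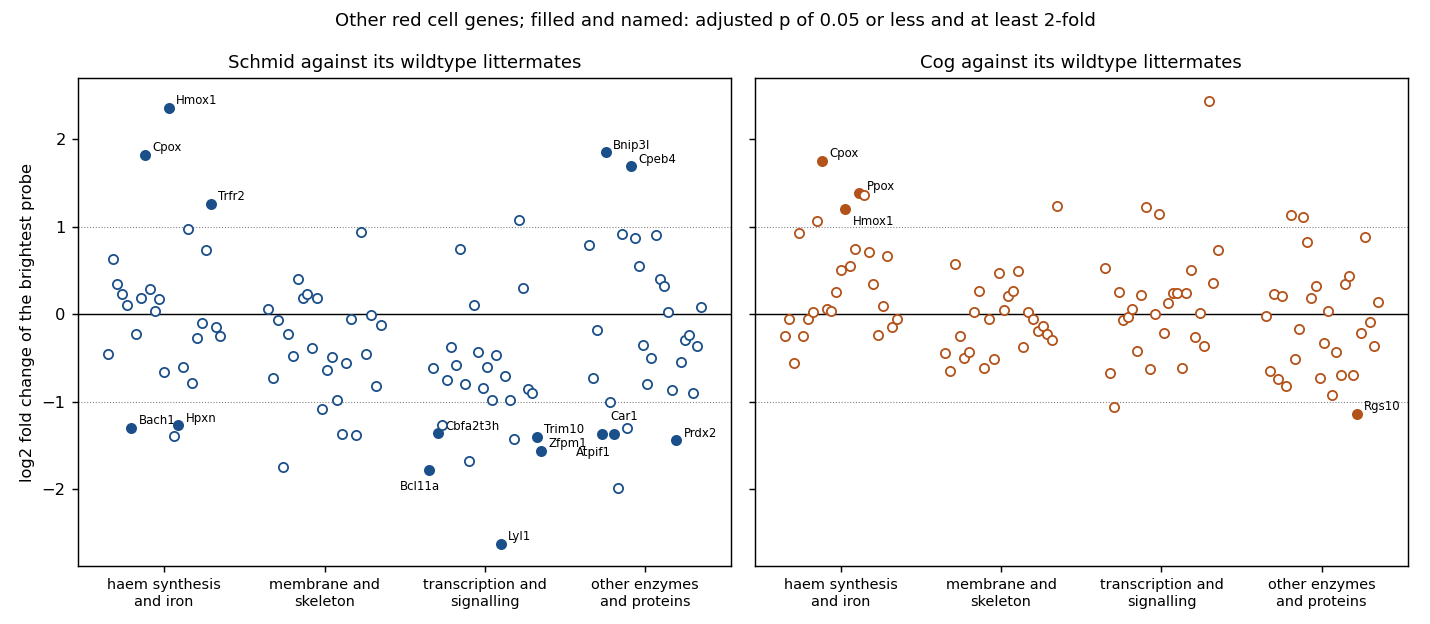
Log2 fold change (vertical axis) of the brightest probe of each measured gene in 4 lists of red cell genes, for Schmid and Cog against their own wildtypes, with filled and named points for genes past both limits. In Schmid, Lyl1 (-2.62) is the lowest and Hmox1 (2.36) the highest named gene, and Cpox and Hmox1 are named in both mutants.

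Of 28 other red cell genes, 3 were lower and 2 higher in Schmid, beside 4.69% and 5.78% of all probes, with a median of -0.32. The count of 3 became 7 with the processed signal under either scaling and 8 with normexp values scaled to the 75th percentile, and 1 without Schmid replicate 2 or with only the 6 arrays of this comparison in the fit. Prdx2, an abundant red cell peroxiredoxin that many tissues also make, fell by 1.44 on the log2 scale (limma adjusted p = 3e-04), and both of its other probes were called at -1.29 and -1.31. Car1, the red cell carbonic anhydrase, and Atpif1, an inhibitor of the mitochondrial ATPase, each fell by 1.37 (adjusted p = 0.02 and 0.032). Car1 was not called without Schmid replicate 2 (-1.01, adjusted p = 0.061) or against all 6 wildtype arrays (-0.52, adjusted p = 0.5), nor Atpif1 without Schmid replicates 1 or 2 or wildtype (Schmid) replicates 2 or 3 (adjusted p = 0.058 to 0.12), and the second Atpif1 probe differed by -0.27.

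Bnip3l, which drives the removal of mitochondria from maturing red cells and is also induced by low oxygen, rose by 1.85 in Schmid (limma adjusted p = 0.0014) and its second probe by 2.12. Cpeb4, a regulator of translation, rose by 1.69 (adjusted p = 0.04). Its 3 dimmer probes differed by -0.28 to 0.10, and its call was lost, with adjusted p values of 0.073 to 0.14, without any of the 3 Schmid replicates or without wildtype (Schmid) replicate 2. In Cog, Rgs10, a regulator of G protein signalling, fell by 1.14 (adjusted p = 0.036), a call not kept without Cog replicates 1 or 2 or wildtype (Cog) replicates 2 or 3. The further embryonic beta-like gene Hbb-y, named after its values were seen, stood at 10.59, 10.57 and 10.68 in Schmid and at 11.08, 11.80 and 11.35 in wildtype (Schmid), a difference of -0.80 (limma adjusted p = 0.0094), under 2-fold.

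Markers of other cells at the cartilage border were read in the same way. Of 20 measured endothelial genes, 12 were lower and 1 higher in Schmid, beside 4.69% and 5.78% of all probes, and 3 were lower in Cog, beside 0.748%. Their mean level was 10.16 to 10.41 in Schmid, 11.59 to 11.78 in wildtype (Schmid), 11.03 to 11.16 in Cog and 11.77 to 11.89 in wildtype (Cog). The endothelial mean was thus below wildtype on all arrays of both mutants. The members' pattern, also a mean of levels, overlapped between Cog (13.47 to 15.65) and wildtype (Cog) (13.94 to 14.72).

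Lower calls in Schmid were 4 of 12 B lymphocyte genes, 4 of 15 macrophage and monocyte genes, 4 of 14 osteoblast genes, 3 of 19 marrow neutrophil genes (with 1 higher), 1 of 13 osteoclast genes, 0 of 9 megakaryocyte and platelet genes and 4 of 16 chondrocyte genes. With 4.69% of all probes called lower, 1 of 13 and 0 of 9 are near or below that share. In Cog these lists had 0, 0, 1, 0, 1, 0 and 1 genes lower, beside 0.748% of all probes, and 1 neutrophil gene was higher. The neutrophil mean, with a range of 9.81 to 13.01 in wildtype (Schmid) and 9.66 to 11.01 in Schmid, overlapped, and its lowest wildtype (Schmid) value was that of replicate 3, the array in which Eraf was low. The means of the other lists in this paragraph were lower on all Schmid arrays than on all wildtype (Schmid) arrays. For B lymphocyte genes the mean was 9.67 to 9.94 against 10.31 to 11.72, and for chondrocyte genes 15.36 to 15.79 against 16.13 to 16.99. In Cog, the B lymphocyte and neutrophil means were above those of wildtype (Cog) on all arrays, and the other means overlapped. The part of blood, vessels and marrow taken along with the cartilage in the members' differences was not tested.

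**Figure D5:**
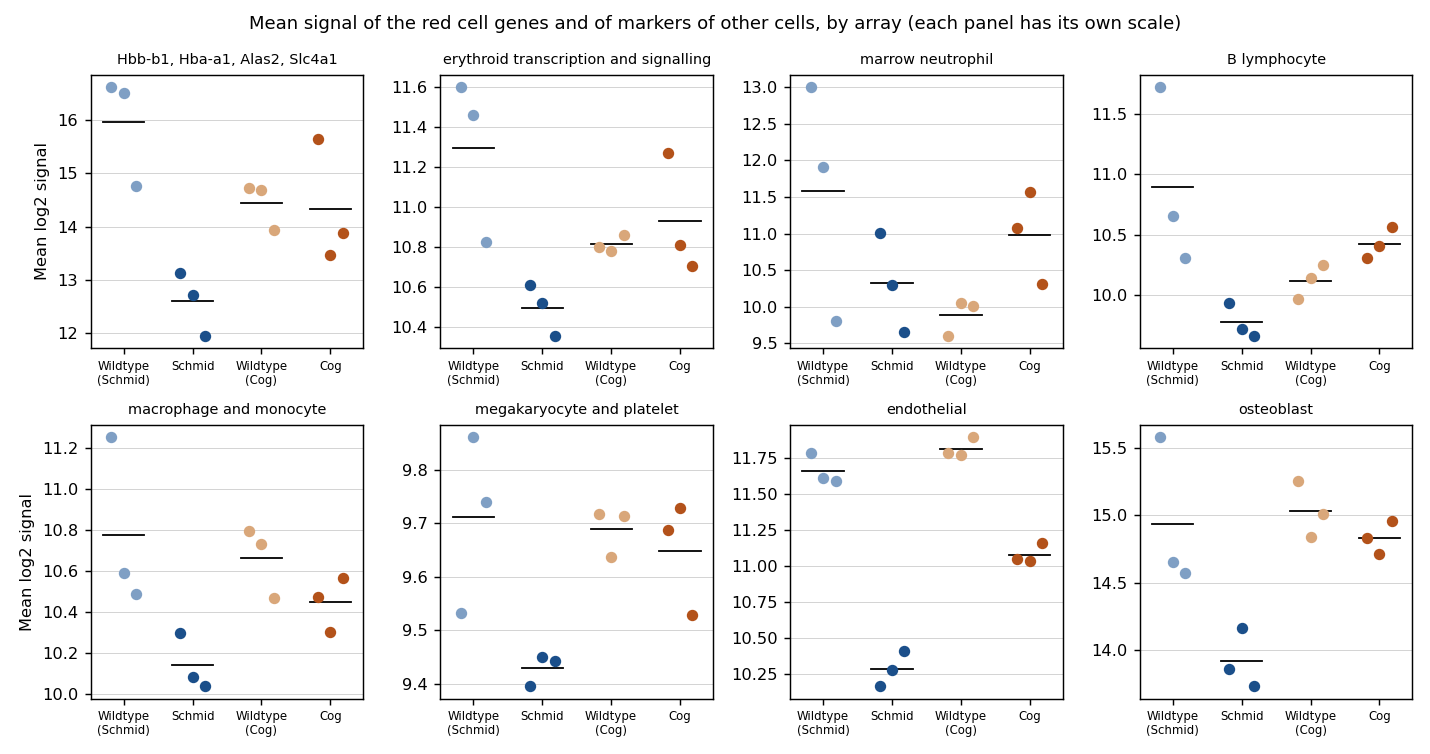
Mean normalized log2 signal per array (vertical axis) of the members' pattern and of the marker lists, with 1 point per array in each group. The members' pattern spans 11.95 to 13.13 in Schmid and 14.76 to 16.62 in wildtype (Schmid), and the endothelial list is lower in both mutants than in their wildtypes.

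The arrays differed in background, with 58.9 to 61.8% of probes well above it in Schmid, 48 to 59.4% in wildtype (Schmid), 39.6 to 48.1% in Cog and 41.1 to 58.5% in wildtype (Cog). All 3 Schmid arrays lay on a slide of their own, as did all 3 wildtype (Cog) arrays, while wildtype (Schmid) replicate 3 shared a slide with Cog, so no mutant shared a slide with its own wildtype, and slide and group cannot be told apart in either comparison. With slide as a random block the 7 probes kept their call, but the estimated correlation within slides was -0.12, and a value below 0 models no slide effect. Hbb-b1, Hba-a1, Alas2 and Slc4a1 were well above background on all 12 arrays and no member probe was saturated on any.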

How the data were processed

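Per the methods, the authors scanned single-colour arrays of the whole mouse genome and extracted spots with Agilent Feature Extraction 9.5.3. The deposited scanner files hold a linear intensity for each spot and its local background, and the deposited table of all samples holds log2 values. Spot intensities were background-corrected by normexp (offset 50), outlier spots and control probes were left out, arrays were quantile normalized, and spots of 1 probe were averaged. A single limma fit (version 3.58.1 in R 4.3.3) of 4 group means over 12 arrays gave each contrast, with p values adjusted by Benjamini-Hochberg over 41174 probes. Called probes had changed at least 2-fold with an adjusted p no higher than 0.05. The replicates are separate mice, and their number limits the precision. The scripts were tested on simulated data.

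The members and lists were chosen with earlier results of these data known. Of the other red cell genes, those called by their brightest probe, at most 4 each way per list and mutant, are named, and Gata1 and Epor always; some results of these lists are not reported here. Deviations of equally numbered Schmid and wildtype (Schmid) arrays correlated at 0.31, 0.28 and 0.12, over 12807 probes, while those of Cog and wildtype (Cog) did so at -0.21, 0.15 and -0.20. Since wildtype (Schmid) and wildtype (Cog) arrays, from different lines, also correlated at 0.50, 0.12 and 0.27, the numbers were not read as litters, and values with the replicate block are given where they change a call. Alternatives covered background correction, scaling, dim probes, array weights, blocks and leaving out each array.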

Additional observations from a re-analysis of the deposited data

Results flagged for a closer look

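The Schmid effect minus the Cog effect, tested as an interaction in limma, passed an adjusted p of 0.05 for 8 member probes, and each was more negative in Schmid. For Hbb-b1 it was -3.14 by A_51_P374476 (adjusted p = 0.033), -3.49 by A_52_P213909 (adjusted p = 0.019) and -3.86 by A_51_P374468 (adjusted p = 0.0093). For Hba-a1 it was -3.07 (adjusted p = 0.03) and -3.51 (adjusted p = 0.021), and for Alas2 -3.34 (adjusted p = 0.035). The embryonic genes passed at less than 2-fold, Hbb-bh1 by A_51_P179672 at -0.92 (adjusted p = 0.0023) and Hba-x at -0.59 (adjusted p = 0.033), the latter near background. With array row and GC trends removed, the Hbb-bh1 value was -0.22 (adjusted p = 0.25).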

How the results depend on the processing

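Beside the values given, 26 other settings were run. With 3 arrays a group, the 95% interval of the Cog difference in Alas2 still spanned -1.57 to 1.35, and Hba-x, Klf1 and 1 Hbb-bh1 probe were near background. The count of member probes lower in Schmid was 7 to 9 when single arrays were left out, that of the Schmid minus Cog effect 2 to 9, and that of probes higher in wildtype (Schmid) than wildtype (Cog) 0 to 2. No called difference changed sign. The replicate block gave 8 probes lower in Schmid and 8 in the Schmid minus Cog effect. It added calls for Slc4a1 in both and for Hbb-b1 (A_52_P260346) in the latter, removed that of Bach1, and took the Hba-x interaction to an adjusted p of 0.052, and it changed no other call among the probes described.

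Differences that changed sign were small or noisy, and the cause was not tested. In Cog, Hbb-b1 by A_51_P374468 was -0.16 with Agilent's processed signal and -0.06 with normexp when both were scaled to the 75th percentile, 0 with array weights, -0.03 with slide as a random block and -0.86 against all wildtype arrays. With the last 2 settings Eraf in Cog was 0 and -0.82, and Klf1 -0.02 and -0.06. Hbb-bh1 (A_51_P179672) in Cog was -0.03 with the processed signal and quantile scaling. With array row and GC trends removed, Hbb-bh1 by that probe was -0.08 in Cog and -0.04 between wildtypes, Hba-x 0.10 in Schmid, -0.01 in Cog and 0.10 in the Schmid minus Cog effect, and Alas2 in Cog 0.06. Scaling normexp values to the 75th percentile gave -0.38 in Schmid and -0.25 in the Schmid minus Cog effect for Hbb-bh1 by A_52_P305876, and -0.16 and -0.26 for Klf1. The Schmid minus Cog effect of Klf1 was -0.70 with the processed signal at that percentile, -0.11 with array weights and -0.14 with scan day as a block, which also gave -0.06 for Klf1 in Schmid. Between wildtypes, scan day as a block gave -0.01 and -0.18 for the Hbb-b1 probes A_51_P374476 and A_52_P260346, -1.04 for Eraf and -0.55 for Klf1. Against all wildtype arrays, Hbb-bh1 by A_52_P305876 was -0.01 in Schmid. The scan day block and the pooled wildtype reference were chosen after the data were seen.

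With single arrays left out, the Cog difference ranged from -0.57 to 0.20 for Hbb-b1 by A_52_P213909, -0.25 to 0.36 by A_51_P374468, -0.60 to 0.19 for Hba-a1 by A_52_P278538, -0.87 to 0.66 for Alas2, -0.08 to 1.67 for Slc4a1, -0.29 to 1.16 for Eraf and -0.38 to 0.53 for Klf1. In Schmid it ranged from 0 to 0.22 for Hbb-bh1 by A_52_P305876 and from -0.06 to 0.78 for Klf1, whose range was -0.17 to 0.74 in the Schmid minus Cog effect and -0.13 to 0.73 between wildtypes.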

Other observations

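With group means removed, so that only differences among arrays of 1 group counted, other genes followed the mean of Hbb-b1, Hba-a1, Alas2 and Slc4a1. That mean was highest on replicate 1 in each group, at 13.13 in Schmid, 16.62 in wildtype (Schmid), 15.65 in Cog and 14.72 in wildtype (Cog). Whether the replicate number bears on these correlations was not tested. The closest over the 12 arrays were Cryzl1 (r = 0.946), Tspan33, a tetraspanin of red cell precursors (r = 0.939), Nek4 (r = 0.924), 2310035K24Rik (r = 0.912) and the transcription factor gene Jun (r = 0.904). With group means kept, r was -0.50 for Cryzl1, 0.42 for Tspan33 and -0.42 for Jun, so that none of these was close over all arrays. These are descriptions, with no test.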
